A study of Mus musculus with 5 samples.

Results

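The colony-stimulating factors and their receptors were described in LPS-stimulated bone marrow-derived macrophages (BMMs) that were given semaphorin 3G (Sema3G) or PBS. The 8 genes were taken by symbol from the 24419 gene rows of the expression table. They comprise the ligand genes Csf1, Csf2 and Csf3 and the receptor genes Csf1r, Csf2ra, Csf2rb, Csf2rb2 and Csf3r. All 8 had a row, 7 passed the minimum mean of 1 CPM (the standard scaling of a gene’s UMI count by the library total), and Csf2 had a count of 0 in each of the 5 libraries.

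BMMs were grown from C57BL/6 bone marrow in 50 ng/ml M-CSF for 5 days and then activated with 100 ng/ml LPS. Both groups share these 2 steps, so the samples hold no macrophage without LPS and none without M-CSF. The PBS group has 2 samples, and the Sema3G group has 3 samples kept for 18 h with the protein at 100 ng/ml. The Sema3G was an Fc-tagged protein made in human embryonic kidney cells, whereas the control was PBS without a protein, so an effect of Sema3G and an effect of the tag or the preparation cannot be told apart. The study does not say whether the samples are separate animals or cultures, so the p-values measure only the spread between these samples.

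M-CSF, encoded by Csf1, acts through the receptor tyrosine kinase CSF1R, which drives the survival, proliferation and differentiation of macrophages. GM-CSF, encoded by Csf2, binds an alpha chain (Csf2ra) that pairs with the common beta chain (Csf2rb), which the receptors for IL-3 and IL-5 also use. Mice have a second, closely related beta chain, Csf2rb2, which serves IL-3. G-CSF, encoded by Csf3, acts through CSF3R, best known from neutrophils and their precursors. LPS is a well-known inducer of Csf2 and Csf3 in macrophages, and activated M-CSF receptors are marked for degradation by the ubiquitin ligase CBL.

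Of the 8 genes, 5 had a promoter in the RefSeq table. Those of the receptor genes among them are shown because PU.1 (Spi1), a transcription factor of myeloid cells, is known for its role at receptor genes of this family and binds the PU box GAGGAA. Each sequence runs from 250 bases before to 50 bases after the start of the RefSeq gene model in GRCm38.p6, on the strand of the gene, at chr19:61228369-61228668 (minus) for Csf2ra, chr15:78305672-78305971 (minus) for Csf2rb2 and chr4:126024409-126024708 (plus) for Csf3r. Capitals mark GAGGAA or, for a match on the opposite strand, TTCCTC.
Csf2ra: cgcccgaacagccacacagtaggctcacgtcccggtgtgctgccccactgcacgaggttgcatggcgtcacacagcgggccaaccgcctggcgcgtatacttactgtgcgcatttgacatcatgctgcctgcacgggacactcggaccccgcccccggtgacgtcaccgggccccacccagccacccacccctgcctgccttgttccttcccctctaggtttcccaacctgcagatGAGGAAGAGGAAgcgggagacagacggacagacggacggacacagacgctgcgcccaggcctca
Csf2rb2: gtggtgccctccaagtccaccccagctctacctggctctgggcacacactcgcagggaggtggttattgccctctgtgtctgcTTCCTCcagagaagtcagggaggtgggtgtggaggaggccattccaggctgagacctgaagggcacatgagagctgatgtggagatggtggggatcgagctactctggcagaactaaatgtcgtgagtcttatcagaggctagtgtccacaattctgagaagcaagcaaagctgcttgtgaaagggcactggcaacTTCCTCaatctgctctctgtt
Csf3r: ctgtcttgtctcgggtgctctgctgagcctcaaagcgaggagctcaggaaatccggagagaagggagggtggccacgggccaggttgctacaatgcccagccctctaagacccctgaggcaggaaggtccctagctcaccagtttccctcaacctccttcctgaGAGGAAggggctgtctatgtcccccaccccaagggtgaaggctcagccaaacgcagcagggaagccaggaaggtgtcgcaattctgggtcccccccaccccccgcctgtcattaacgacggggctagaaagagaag

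Csf2ra carries 2 adjoining copies of the PU box on the strand of the gene, the first of which begins 14 bases before the start site. Csf3r carries 1 copy on that strand, 86 bases before its start site, and Csf2rb2 carries 2 on the opposite strand. Of 32851 promoter windows of this length, 28.3% hold the motif on either strand. Of the 5 promoters of these genes, 3 do and the others do not, so a match is a description and not a binding site.

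The libraries hold between 1283029 and 1487137 UMIs on the listed genes, and 3 counts correspond to between 1.35 and 1.67 CPM. A UMI (unique molecular identifier) marks each RNA molecule once, and the libraries read the 3′ end of each RNA, so that the CPM of a gene does not scale with its length. The listed genes made up 75.6% to 77.6% of the library totals with PBS and 65.9% to 71.3% with Sema3G, while the ribosomal RNA precursor Rn45s took 1.01% and 3.19% with PBS and 6.31% to 7.88% with Sema3G. Both shares enter the CPM, so the results are also given over the listed genes without Rn45s, which takes both out of the scaling. The fold change of the median gene was -0.22 on the log2 scale, so each change below is also given relative to that median. In bulk samples, fewer cells that express a gene and less RNA per cell cannot be told apart.

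The ligand genes were at or near the limit of detection in these activated macrophages. Csf1, the gene of the factor supplied in the medium, had 6 UMIs in PBS replicate 1, none in PBS replicate 2, and 3, 1 and 3 UMIs in the Sema3G libraries. These correspond to 3.30 and 0 CPM with PBS and to 1.67, 0.451 and 1.38 CPM with Sema3G. The groups overlapped, since the highest and the lowest value both came from the PBS group. Over each group, the level was 0.696-fold of PBS (95% exact binomial interval 0.200 to 2.51, for counting error only). The log2 fold change was 0.017 (limma, with a standard error of 0.65 and adjusted p = 0.991), with a 95% interval from -1.34 to 1.37. Stromal cells are known to make Csf1, and the summed level of 8 stromal marker genes ranged from 11.8 to 28.6 CPM with PBS and from 12.2 to 21.7 CPM with Sema3G. Lum, a stromal marker, was at 0 in all 5 libraries, and the part of such cells in the Csf1 counts was not tested.

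No UMI of Csf2 was found in any library. With a limit of 3 counts per library, a count of 0 leaves room for 1.65 and 1.61 CPM in the PBS samples and for 1.67, 1.35 and 1.38 CPM in the Sema3G samples. Over each group the same limit gives 0.813 CPM with PBS and 0.485 CPM with Sema3G, and a difference in Csf2 below these levels was not detectable at this depth. Il3 and Il5, whose products share the beta chain with GM-CSF, also had 0 UMIs in all 5 libraries, and Il34, which encodes the other ligand of CSF1R, had 1 UMI in PBS replicate 1 and 1 in Sema3G replicate 3.

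Csf3 was read as 1 and 8 UMIs in the PBS libraries, against 0, 0 and 1 in the Sema3G libraries, or 0.549 and 4.28 CPM against 0, 0 and 0.461 CPM. PBS replicate 2 held most of the molecules, and PBS replicate 1 and Sema3G replicate 3 each had a single one. Over each group, Csf3 was 15.1-fold higher with PBS, with a 95% exact binomial interval from 2.09 to 661 that covers counting error only and not the spread between libraries. In the test across libraries it was not called (limma, log2 fold change -1.33 with a standard error of 0.65, adjusted p = 0.248). With PBS replicate 2 left out, its log2 fold change was -0.45 (limma, adjusted p = 0.771), so that the difference rests on that library.

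**Figure D1:**
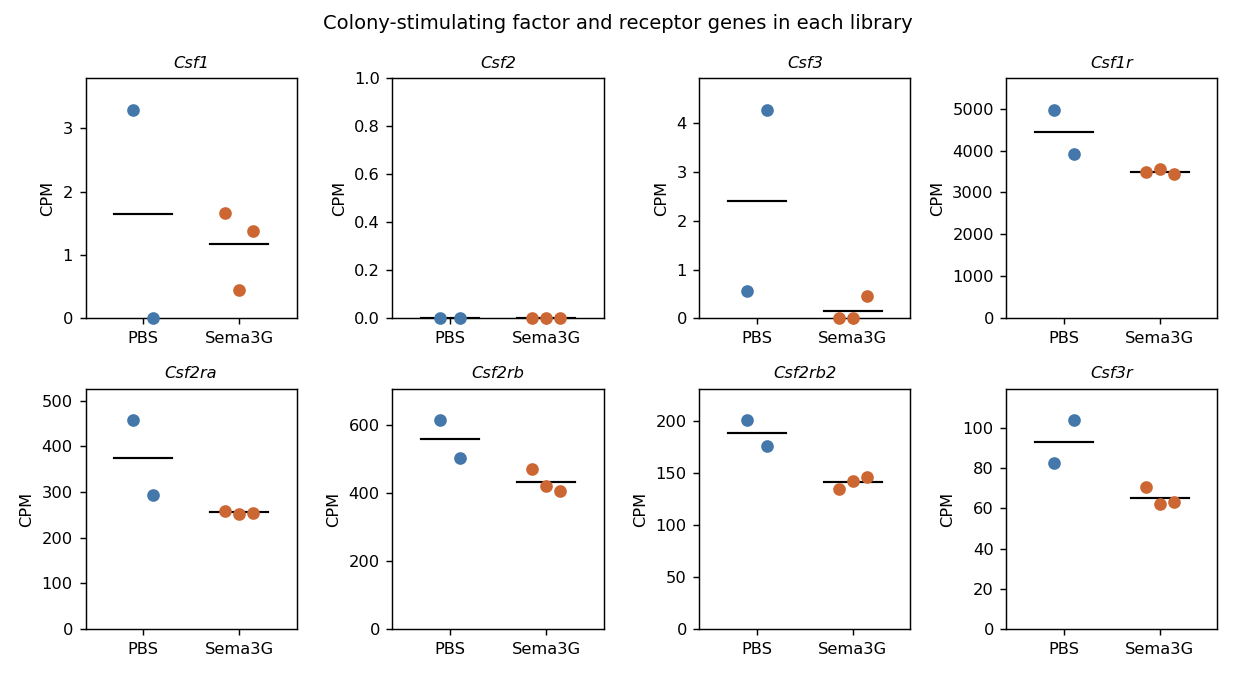
Level in CPM (y axes, each from 0) of the 3 ligand genes and the 5 receptor genes in each PBS library (blue) and each Sema3G library (orange). Lines mark the group means, and for Csf1r, the most abundant of the 8, they lie at 4442 and 3497 CPM.

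In contrast to the ligands, the receptors were well measured. Csf1r, the receptor of M-CSF and a defining gene of macrophages, was at 4976 and 3909 CPM in the PBS libraries and at 3478, 3563 and 3451 CPM in the Sema3G libraries. By mean CPM it ranked 9 among all rows of the table. Every Sema3G library lay below both PBS libraries, and the 3 Sema3G values lay closer together than the PBS pair. The group levels were 4442 ± 754 CPM (SD, n = 2) and 3497 ± 58.7 CPM (SD, n = 3). The log2 fold change was -0.33 (limma, standard error of 0.28, 95% interval -0.91 to 0.24, adjusted p = 0.483), which is -0.11 relative to the median gene. Leaving out PBS replicate 1 gave -0.16 and leaving out PBS replicate 2 gave -0.51. The annotated exons of Csf1r share 873 bases with those of Hmgxb3 on the other strand, and no source used here says whether strand was used in counting. Hmgxb3 itself was low, with 8.69 ± 0.926 CPM (SD, n = 2) in the PBS libraries and 6.36 ± 3.87 CPM (SD, n = 3) in the Sema3G libraries.

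Csf2ra, the alpha chain that binds GM-CSF and whose promoter carries the adjoining PU boxes, was at 457 and 294 CPM with PBS and at 259, 252 and 254 CPM with Sema3G. All Sema3G libraries were below both PBS libraries, but PBS replicate 1 stood far above PBS replicate 2. The log2 fold change of -0.52 (standard error 0.20, 95% interval -0.94 to -0.097) had an unadjusted p of 0.0187 and did not pass adjustment over all genes (limma, adjusted p = 0.161). Relative to the median gene the change was -0.29. It depended on the PBS library kept, at -0.20 without PBS replicate 1 (limma, adjusted p = 0.694) and -0.84 without PBS replicate 2, where it was called (limma, adjusted p = 0.0455). It was also called with the replicate number as a block (limma, log2 fold change -0.52 and adjusted p = 0.0404), in a fit with a single residual degree of freedom. Sema3G replicate 3 is alone in its block and does not enter that change. Without that library and without the block, the change was also -0.52 and was not called (limma, adjusted p = 0.434).

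Csf2rb, the common beta chain, was at 615 and 504 CPM with PBS and 471, 421 and 407 CPM with Sema3G. The groups did not overlap, though Sema3G replicate 1 came close to PBS replicate 2. Its log2 fold change was -0.37 (limma, standard error of 0.19, 95% interval -0.77 to 0.034, adjusted p = 0.277), or -0.14 relative to the median gene, and it was -0.22 without PBS replicate 1. Csf2rb2, the IL-3 beta chain, was at 201 and 176 CPM with PBS and 135, 142 and 147 CPM with Sema3G, again without overlap. Its log2 fold change was -0.41 (limma, standard error of 0.18, 95% interval -0.79 to -0.031, adjusted p = 0.208), or -0.18 relative to the median gene. With 1 library left out, the log2 fold change of Csf2rb2 ranged from -0.505 to -0.314. Relative to the median gene it was -0.11 without Sema3G replicate 1 and -0.25 without Sema3G replicate 3.

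The beta chain genes are neighbours on chromosome 15 of GRCm38, where GENCODE M21 places Csf2rb2 at 78282507 to 78305721 on the minus strand and Csf2rb at 78325752 to 78353847 on the plus strand, 20030 bp apart. Because they are so similar, the counts of the pair could be mixed. In the last 500 bases of their annotated coding transcripts (fewer where the transcript is shorter), alignments between them were searched. None of 75 bases (the read length) or more was free of mismatches. Identical stretches of 75 bases inside longer alignments with mismatches were not counted, so the search cannot decide whether reads can fit both genes. The ends of the annotated Csf2rb transcripts aligned to Csf2rb2 with identities from 81.0% over 495 bases to 98.0% over 394 bases, and an end of Csf2rb2 aligned to Csf2rb with 92.9% over 393 bases. No source used here says how reads that fit both genes were assigned, so the split between them is uncertain.

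Within each library, Csf2rb2 took 24.6% and 25.8% of the UMIs on the beta chain pair with PBS and 22.2%, 25.3% and 26.5% with Sema3G. The 95% exact binomial intervals ran from 22.4% to 26.9% in PBS replicate 1 and from 19.8% to 24.8% in Sema3G replicate 1, and the groups overlapped. The alpha chain took 42.6% and 36.8% of the UMIs on Csf2ra and Csf2rb with PBS and 35.5%, 37.5% and 38.5% with Sema3G. Only PBS replicate 1 was high here, and PBS replicate 2 lay among the Sema3G libraries. These shares do not depend on how the libraries are scaled, and they were computed after the values were seen.

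**Figure D2:**
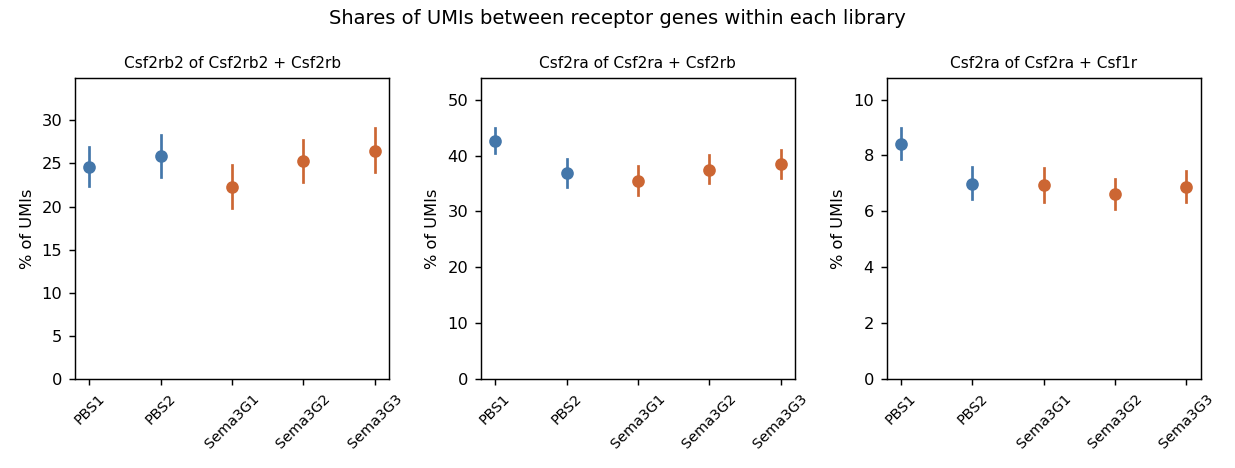
Share of UMIs in percent (y axes from 0) of Csf2rb2 among both beta chain genes, of Csf2ra among Csf2ra and Csf2rb, and of Csf2ra among Csf2ra and Csf1r, in each PBS library (blue) and Sema3G library (orange), with 95% exact binomial intervals for counting error. In the right panel PBS replicate 1 stands at 8.41%, and the other 4 libraries lie between 6.61% and 6.99%.

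Csf3r, the G-CSF receptor, was at 82.4 and 104 CPM with PBS and 70.6, 62.3 and 63.2 CPM with Sema3G. The Sema3G libraries were again all below the PBS libraries, and here PBS replicate 2 was the higher of the pair. The log2 fold change was -0.50 (standard error 0.20, 95% interval -0.91 to -0.082), with an unadjusted p of 0.0215 and an adjusted p of 0.170 from limma. Relative to the median gene it was -0.27, which became -0.53 when PBS replicate 1 was left out and -0.035 when PBS replicate 2 was. Of 10 neutrophil markers, 9 had a row, and Elane, Ngp, Retnlg and Cxcr2 were at 0 in every library. S100a9 had between 2 and 4 UMIs per library, and the summed level of the list, most of it S100a8, ranged from 116 to 169 CPM with PBS and from 103 to 133 CPM with Sema3G.

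None of the 7 tested genes was called at an adjusted p below 0.05 by limma on log2(CPM + 1), against 1.59% of all 10088 tested genes called higher and 0.218% called lower. The number of all genes called lower, 22, depended on the libraries, at 440 without Sema3G replicate 1 and 0 without Sema3G replicate 2 or 3. At an unadjusted p below 0.05, Csf2ra, Csf2rb2 and Csf3r were lower and none was higher, while 14.2% of all genes were lower and 6.83% higher at that limit. The number of these genes at that limit was 4, 0 and 1 without Sema3G replicate 1, 2 and 3. It was 0 with limma on TMM-scaled CPM and over the listed genes without Rn45s. edgeR's quasi-likelihood test and DESeq2 on the recovered counts each tested the 5 receptor genes, called none, and gave none an unadjusted p below 0.05. Over all genes they called 383 of 8207 and 235 of 7597, of which 3 and 1 were lower.

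The Sema3G libraries were all below both PBS libraries for 6 of the 7 genes, against 26.5% of all genes tested. One of the 6 is Csf3, in which PBS replicate 1 and Sema3G replicate 3 have 1 UMI each and differ only by their depth. The median log2 fold change of the 7 genes was -0.41, which is -0.18 relative to that of all genes and -0.091 without PBS replicate 1. The separation depended on the scaling. With TMM factors, which set the libraries level over most genes, it held for 4 genes (Csf2ra, Csf2rb, Csf2rb2 and Csf3r), against 14.7% of all genes. With CPM taken over all listed genes except Rn45s it held for none, against 10.5% of all genes. On that last scale Csf1r was at 6496 and 5401 CPM with PBS and at 5348, 5968 and 5949 CPM with Sema3G, so that its groups overlapped. The fitted log2 fold changes of the 5 receptors stayed below 0 on all 3 scales, at -0.11 for Csf1r with TMM factors and -0.043 over the listed genes. The median of all genes moved too, to -0.022 and 0.042, so that relative to it Csf1r was at -0.091 and -0.086 and Csf2ra at -0.28 and -0.27, close to the values with the deposited CPM.

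**Figure D3:**
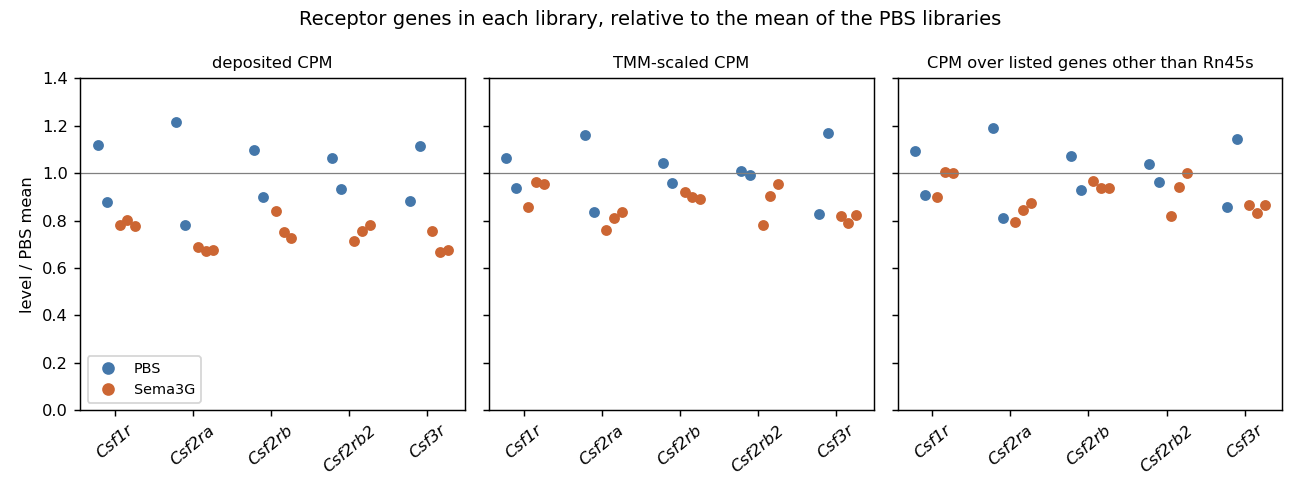
Level of the 5 receptor genes in each library divided by the mean of the PBS libraries (y axis from 0, no unit), for PBS (blue) and Sema3G (orange), under 3 scalings. The groups are apart for all 5 receptors with the deposited CPM, for 4 with TMM factors and for none over the listed genes without Rn45s.

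**Figure D4:**
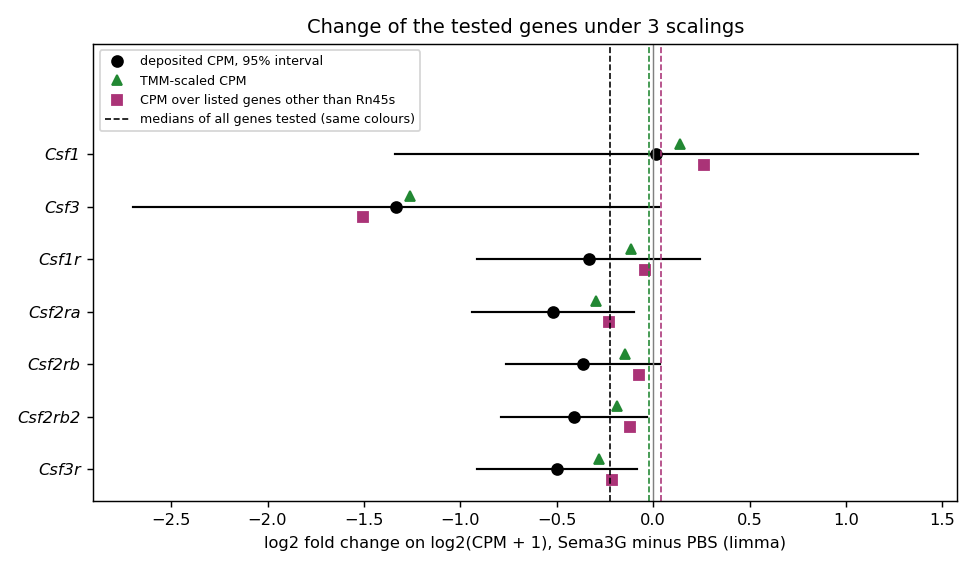
Log2 fold change of the 7 tested genes, Sema3G minus PBS, with the deposited CPM (circles, with 95% intervals from limma) and under the other 2 scalings (triangles and squares). Dashed lines in the same colours are the medians of all tested genes, at -0.22, -0.022 and 0.042, and the receptor values move along with them.

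Across the 5 libraries, the receptor profiles were compared by the root mean square distance between their log2(CPM + 1) values, each centred on its own mean. Csf1r lay nearest to Csf2rb2 and Csf2rb among the receptors, at distances of 0.075 and 0.077, whereas Csf2ra and Csf3r were farthest apart, at 0.31. That distance reflects the PBS pair, in which Csf2ra was higher in replicate 1 and Csf3r in replicate 2. Among the 6381 genes averaging 10 CPM or more, the closest to Csf1r were Csnk2a2, Ctla2b and Arpc1a, at distances between 0.030 and 0.031. The closest genes were Ubap1, Cant1 and Sec61a1 for Csf2ra, Lcmt1, Mospd3 and Mrpl33 for Csf2rb, Saraf, Fam214b and Zfp768 for Csf2rb2, and Ccdc9, Pgm2 and Large for Csf3r, all at distances up to 0.047. No receptor was among the 3 nearest genes of another.

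Among the related receptors, Il3ra, the alpha chain that pairs with both beta chains for IL-3, lay in the other direction. It was at 9.89 and 10.2 CPM with PBS and 18.3, 21.7 and 20.3 CPM with Sema3G, with no overlap between the groups. The log2 fold change of 0.93 (standard error 0.28, 95% interval 0.34 to 1.53) did not pass adjustment (limma, adjusted p = 0.0952), but it was called by edgeR's quasi-likelihood test (adjusted p = 0.0267) and with limma on TMM-scaled CPM (adjusted p = 0.0301), and not by DESeq2 (adjusted p = 0.135) or limma with the replicate block (adjusted p = 0.0621). For comparison, 11.9% of all tested genes had every Sema3G library above both PBS libraries. Il5ra had 0 UMIs throughout, and of the 5 related genes Il3ra alone passed the minimum of 1 CPM.

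The signalling genes next to these receptors were read from the same test. Of 19 genes of proximal signalling, which include the kinases JAK2 and LYN, the STAT5 factors and the RAS-MAPK adaptors, 1 was called lower and none higher, against 0.218% and 1.59% of all genes. Which genes were called depended on the scaling. Mapk3, which was lower, was not called on TMM-scaled CPM, where the call was Pik3r1 (higher), nor over the listed genes or by edgeR, where the calls were Sos1 and Pik3r1 (both higher). The median of the list was -0.35, or -0.12 relative to all genes, and leaving out 1 library put the relative median between -0.20 (Sema3G replicate 1) and -0.0092 (PBS replicate 1). With the deposited CPM the call was Mapk3, which encodes the kinase ERK1, at 429 and 546 CPM with PBS and at 335, 250 and 238 CPM with Sema3G. Its log2 fold change was -0.83 (limma, with a standard error of 0.20 and adjusted p = 0.0439), and the call was lost under 9 of 14 alternatives, with adjusted p values up to 0.291. The change kept its direction in all 14, and relative to the median gene it was -0.59 with TMM factors, over the listed genes and with a pseudocount of 0.1, -0.60 with edgeR and -0.61 with DESeq2, against -0.61 with the deposited CPM, and -0.36 without PBS replicate 2. Tyrobp, the adaptor DAP12 and the most abundant gene of the list, was at 1130 and 673 CPM with PBS and 782, 556 and 524 CPM with Sema3G, with overlapping groups (limma, log2 fold change -0.51 and adjusted p = 0.230). Its value was -0.14 without PBS replicate 1 and -0.89 without PBS replicate 2. Sos1, the exchange factor that activates RAS, had the highest value of the list (limma, log2 fold change 0.86 and adjusted p = 0.114), and was at 13.7 and 15.0 CPM with PBS against 20.6 to 36.0 CPM with Sema3G. Sos1 was called by edgeR's quasi-likelihood test (adjusted p = 0.0387), with limma over the listed genes (adjusted p = 0.0284) and with limma without Sema3G replicate 1 (adjusted p = 0.0428), and not by DESeq2 (adjusted p = 0.116).

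Of 13 genes that attenuate the signal, 1 was called higher and none lower, against 1.59% and 0.218% of all genes, and the list's median lay 0.083 above that of all genes (0.15 to 0.33 with 1 library left out, lowest without PBS replicate 1 and highest without Sema3G replicate 2). Cbl rose from 19.8 and 12.3 CPM with PBS to 56.2, 92.5 and 85.7 CPM with Sema3G, the largest change of the list. The Sema3G level was 78.1 ± 19.3 CPM (SD, n = 3), and the groups were far apart, with a log2 fold change of 2.22 (limma, with a standard error of 0.26 and adjusted p = 0.000185). The call held under all 14 alternatives, with log2 fold changes between 1.90 and 2.55. Adam17, the protease that sheds the extracellular part of CSF1R and the most abundant gene of the list, was at 389 and 376 CPM with PBS and 385, 311 and 328 CPM with Sema3G (limma, log2 fold change -0.17 and adjusted p = 0.608). Sh2b3, the adaptor LNK, had the lowest value of the list (limma, log2 fold change -0.63 and adjusted p = 0.202), and its groups overlapped.

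Of 9 transcription factor genes known from the regulation of Csf1r and related myeloid genes, none was called by limma on log2(CPM + 1), and Runx1 (higher) and Cebpb (lower) had an unadjusted p below 0.05, which 6.83% of all genes had on the higher and 14.2% on the lower side. Runx1 was at 57.7 and 64.2 CPM with PBS and at 89.0, 102 and 103 CPM with Sema3G (limma, log2 fold change 0.68 with a standard error of 0.19, adjusted p = 0.0805). Runx1 was called by edgeR's quasi-likelihood test (adjusted p = 0.0157) and by DESeq2 (adjusted p = 0.0170). Cebpb had the lowest log2 fold change of the 9 and was at 527 and 600 CPM with PBS and 373, 405 and 404 CPM with Sema3G (limma, log2 fold change -0.51 and adjusted p = 0.138). With the replicate block Cebpb was called (limma, log2 fold change -0.53 and adjusted p = 0.0358). Spi1, which encodes PU.1 and was the most abundant of the 9 over all libraries, was at 586 and 538 CPM with PBS and 502, 480 and 441 CPM with Sema3G. Its log2 fold change of -0.25 (limma, adjusted p = 0.449) lay -0.020 from the median gene, and its groups did not overlap, as was so for 26.5% of all genes in that direction.

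**Figure D5:**
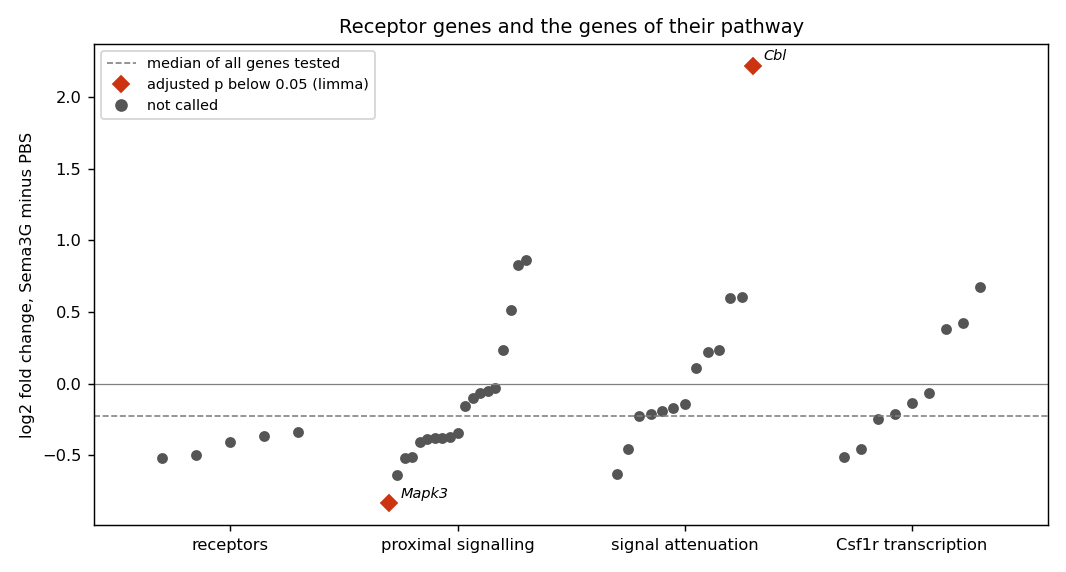
Log2 fold change, Sema3G minus PBS, of each tested gene (y axis) among the 5 receptors, 19 genes of proximal signalling, 13 of signal attenuation and 9 transcription factors of Csf1r. Red diamonds are genes with an adjusted p below 0.05 from limma, Mapk3 below 0 and Cbl at 2.22, and the dashed line is the median of all tested genes.

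The labelled cell type was checked against marker genes. Of 9 macrophage markers, all had UMIs, and Lyz2, Cd14, Adgre1, Itgam and Cd68 were among the abundant ones, with Lyz2 at 4084 and 2641 CPM with PBS and 2527 to 3226 CPM with Sema3G. The list's summed level was 5883 to 7656 CPM with PBS and 5472 to 5998 CPM with Sema3G, and none of its genes was called by limma. At an unadjusted p below 0.05 there was 1 lower and 1 higher, against 14.2% and 6.83% of all genes. Adgre1, which encodes F4/80, was at 1069 and 916 CPM in the PBS libraries and at 902, 631 and 567 CPM in the Sema3G libraries, without overlap (limma, log2 fold change -0.53 and adjusted p = 0.192). Mertk, a receptor of resident macrophages, was at 2 and 0 UMIs in the PBS libraries against 4 to 5 in the Sema3G libraries. Of 8 lymphoid markers, 7 were at 0 in all libraries, and the exception, Cd79b, reached 5 UMIs in each PBS library against 1, 0 and 1 in the Sema3G libraries (limma, adjusted p = 0.152). Of 8 markers of dendritic cells, 4 were at 0 in all libraries and none exceeded 4 UMIs in a library, with Batf3 the one tested. Among the stromal markers, Col1a2 was the most abundant, at 9.34 and 2.68 CPM with PBS and 5.00, 1.81 and 8.30 CPM with Sema3G.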

How the data were processed

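RNA from 5 samples was used, 2 with PBS and 3 with Sema3G. The authors made 3′-end UMI libraries, aligned them to mm10 in Strand NGS, which also gave the UMI count of each gene, and normalized with EdgeR (edgeR 3.12 in the submitters' processing notes). The deposited values are CPM. No source used here gives the annotation or the filters. The table also holds p-values, q-values and ranks of the authors' own comparison, which were not used. UMI counts were recovered from the CPM steps (100% of values within 0.01 of a whole count).

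In R 4.3.3, log2(CPM + 1) values of genes averaging 1 CPM or more were tested with limma 3.58.1 (trend option), and p-values were adjusted over all of them by Benjamini-Hochberg. The added 1 makes fold changes of low genes appear smaller. edgeR's quasi-likelihood test (4.0.16) and DESeq2 (1.42.0) were run on recovered counts as alternatives. All were tested on simulated data. The pseudocount, the filter, the scaling, the replicate block and each library were varied too.

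The 8 genes and all lists were chosen with earlier results of these data known. Named are the 8 genes, called genes of the lists, the most abundant and, outside marker lists, the highest and lowest changes of each list, and for each gene of at least 10 CPM the 3 with the nearest profile. Other genes were chosen after their values were seen.

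Sema3G replicates 2 and 3 were the most alike (chi-square per degree of freedom 1.77, and 6.57 to 29.6 for the other pairs), beyond sampling noise, and were counted separately. Promoters are from RefSeq (GRCm38.p6), which held 5 of the 8 genes, and gene models from GENCODE M21, with the same build as mm10.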

Additional observations from a re-analysis of the deposited data

How the results depend on the processing

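A fit with a single PBS library takes its spread from the Sema3G libraries. The cause of the changes below was not tested except where fewer libraries or genes were used.

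The log2 fold changes of Csf1r, Csf2ra, Csf2rb, Csf2rb2, Csf3 and Csf3r kept their direction under every alternative that could test them. Csf2ra was called with the replicate block (-0.52) and ranged from -0.84, called, to -0.20 with 1 library left out. Csf3, at -1.33, was -3.25 with a pseudocount of 0.1 and -0.48 with 5. Csf1, at 0.017, was 0.96 with a pseudocount of 0.1, -0.068 with 5 and -0.075 with the replicate block, and ranged from -1.04 to 1.07 with 1 library left out. The number of the 8 genes called, 0, was 1 with the replicate block and 0 to 1 with 1 library left out, the exception being the fit without PBS replicate 2. The number with every Sema3G library below both PBS libraries, 6, was 0 over the listed genes other than Rn45s, an alternative chosen for this count after seeing the data, as was that with TMM factors.

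Of the 5 related genes, 1 was called with TMM-scaled CPM, over the listed genes and with edgeR. In these settings 351 of 10088, 498 of 10088 and 383 of 8207 genes were called in all. DESeq2 called 235 of 7597, and the replicate block 573 of 10088. Of the proximal signalling genes, 0 were called with a pseudocount of 0.1, no filter and DESeq2. There were 2 over the listed genes and with edgeR (Sos1 and Pik3r1, both higher), and 2 with the replicate block (Mapk3 and Pik3r1). Without Sema3G replicate 1, 4 were called, where 710 of all 10088 genes were. Without Sema3G replicate 2 or 3, 0 were called, where 27 and 32 of all genes were. Of the attenuation genes, 2 were called over the listed genes and with edgeR (Cbl and Ptpn11), beside the 498 and 383 of all genes. Of the transcription factors, 1 was called with TMM-scaled CPM, over the listed genes, with edgeR and with DESeq2, 2 with the replicate block (Runx1 and Cebpb), and 0 to 1 with 1 library left out (1 without Sema3G replicate 1). Of the macrophage markers, 0 to 1 were called with 1 library left out (1 without PBS replicate 2 or Sema3G replicate 1).

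With TMM-scaled CPM, over the listed genes, with edgeR and with DESeq2, Adam17 was at 0.050, 0.12, 0.072 and 0.043, and Lyz2 at 0.071, 0.14, 0.092 and 0.065. S100a8 was at 0.022, 0.092 and 0.021 with the first 3 of these, Col1a2 at 0.044 over the listed genes and 0.015 with edgeR, and Spi1 at 0.045 over the listed genes. With 1 library left out, Lyz2 ranged from -0.46 to 0.16, S100a8 from -0.47 to 0.075 and Col1a2 from -0.94 to 0.55.

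The replicate numbers did not pair the libraries by the labels. Deviations from the group means correlated at 0.17 for replicate 1 and 0.11 for replicate 2 across genes. For PBS replicate 2 with Sema3G replicate 3, whose numbers differ, the correlation was 0.097. The deviations of the 2 PBS libraries mirror each other, so these values cannot decide whether the numbers pair the libraries. The fit with the replicate block has 1 residual degree of freedom, and Sema3G replicate 3, alone in its block, does not enter its fold changes. That fit called 573 genes (298 higher and 275 lower) against 182 (160 and 22) without the block. Over all genes, calls numbered 108 with no filter, 351 with TMM-scaled CPM, 498 over the listed genes, 383 with edgeR, and 27 to 710 with 1 library left out (27 without Sema3G replicate 2, 710 without Sema3G replicate 1).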
